A study of Mus musculus with 4 samples.

Results

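The 10 genes described here mark the resident macrophages of the red pulp of the spleen and its monocytes. They were taken by symbol from the deposited FPKM table, and all 10 were found among its 14226 rows. Spic, Vcam1, Hmox1, Cd5l, C1qa, C1qb and C1qc are the 7 red pulp genes, and Lyz2, Csf1r and Cd14 are the 3 monocyte genes. RNA sequencing was done on splenocytes, the mixed cell suspension of a whole spleen, from C57BL/6N mice. There were 2 libraries from transgenic mice of genotype vcS5 +/T and 2 libraries from wild-type (wt) mice, which the series design calls biological replicates. Both vcS5 libraries carry the name of 1 transgenic line, line1. The series title names an activating STAT5 mutation and peripheral T cell lymphoma, and the comparison of vcS5 with wt asks how the spleen transcriptome differs with this transgene. The promoter of the transgene and the age of the mice are not given in the sources used here.

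Red pulp macrophages clear aged red blood cells from the circulation, break down their haem and return the iron to the blood. The transcription factor SPIC is required for their development in mice, and haem induces the Spic gene by removing the repressor BACH1, which also represses Hmox1. Monocytes depend on the CSF1 receptor and carry CD14, a coreceptor for bacterial lipopolysaccharide, and they make lysozyme, as do neutrophils and macrophages. In RNA from a whole suspension, fewer cells of a type and less RNA per cell cannot be told apart.

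Promoter windows are shown for the red pulp genes C1qb, C1qc and Cd5l and for Lyz2, the only member that passed the test. Of the 10 genes, Cd5l, C1qb, C1qc, Spic and Lyz2 matched the RefSeq promoter table (GRCm38.p6, the assembly of mm10). Vcam1, Hmox1, C1qa, Csf1r and Cd14 did not. Each line gives the 250 bases before the start of the gene in RefSeq, on the strand of the gene. That start differs from the one in the deposited table for 4 of the 5 genes. For C1qc it lies 151 bases inside the gene as the table places it, so 151 of the 250 bases shown are within that gene. For Spic it lies 1992 bases inside, so the whole Spic window does. The starts differ by 2 bases for Lyz2 and 13 bases for C1qb. Capitals mark the PU box, GAGGAA or its reverse complement TTCCTC, the letters recognised by ETS factors of the PU.1 and SPIC group.
C1qb, chr4:136886201-136886450, minus strand: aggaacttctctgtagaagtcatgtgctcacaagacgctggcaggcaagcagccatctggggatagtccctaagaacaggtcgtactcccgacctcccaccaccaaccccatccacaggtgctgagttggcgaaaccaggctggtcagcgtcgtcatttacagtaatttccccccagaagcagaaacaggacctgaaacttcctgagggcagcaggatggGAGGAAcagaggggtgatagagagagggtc
C1qc, chr4:136892915-136893164, minus strand: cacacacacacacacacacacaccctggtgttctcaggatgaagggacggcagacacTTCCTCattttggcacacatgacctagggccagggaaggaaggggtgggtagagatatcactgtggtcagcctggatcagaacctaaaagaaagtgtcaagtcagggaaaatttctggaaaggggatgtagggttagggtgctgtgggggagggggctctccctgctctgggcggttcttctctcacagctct
Cd5l, chr3:87357631-87357880, plus strand: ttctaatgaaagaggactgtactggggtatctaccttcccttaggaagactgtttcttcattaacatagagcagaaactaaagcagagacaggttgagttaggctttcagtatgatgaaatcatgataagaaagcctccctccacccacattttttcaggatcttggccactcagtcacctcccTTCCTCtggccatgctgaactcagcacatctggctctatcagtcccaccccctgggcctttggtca
Lyz2, chr10:117282273-117282522, minus strand: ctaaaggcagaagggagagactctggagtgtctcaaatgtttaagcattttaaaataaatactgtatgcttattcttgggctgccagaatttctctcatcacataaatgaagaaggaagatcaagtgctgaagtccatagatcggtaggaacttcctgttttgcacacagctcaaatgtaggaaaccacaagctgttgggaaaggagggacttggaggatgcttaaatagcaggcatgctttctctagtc
The PU box was present once in the windows of C1qb, C1qc and Cd5l, with its first base at -30, -193 and -66 from the RefSeq start, and absent from those of Lyz2 and Spic. It was present in 23.3% of the 32851 promoter windows of that length in the table. The Spic window is not shown, so each red pulp window shown holds the box. The letters TGAGTCA, the core of AP-1 and MAF recognition elements, were in none of the 5 windows and in 4.46% of all windows, searched on both strands. The motif does not overlap the PU box. These matches describe letters, not bound sites.

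Across the whole table, 1241 of 14226 rows passed the test (limma on log2 of FPKM + 1, Benjamini-Hochberg adjusted p under 0.05), 653 higher and 588 lower in vcS5. Median FPKM was 12.2 and 12.6 in the vcS5 libraries and 12.2 and 12.5 in the wt libraries, and the median log2 change over all rows was 0.0012. Lymphocyte markers were present in every library. Of 10 B cell markers, 10 fell, and their summed level was 1446 and 1400 FPKM in vcS5 and 3453 and 4187 FPKM in wt. Of 10 T cell markers, 6 rose and 1 fell, with sums of 2809 and 3607 FPKM in vcS5 and 775 and 1076 FPKM in wt.

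Among the 10 macrophage and monocyte genes, Lyz2 fell in vcS5, to 0.382 of its wt level, and no gene rose, where 8.72% of all rows passed the test and 4.59% were higher in vcS5. The other 9 did not pass the test, although each had a mean log2 change below 0. In 9 of the 10 genes, all but Lyz2, the lowest of the 4 values was that of vcS5 replicate 1. In vcS5 replicate 2, the 6 red pulp genes other than Hmox1 lay between 98.3% and 120% of the wt mean. Of all rows, 4.13% were called lower, against 1 of these 10 genes, and 49.9% had a log2 change below 0, against 10 of 10. The median log2 change of the 10 genes was -0.45, of the red pulp genes -0.38 and of the monocyte genes -0.69. At an unadjusted p under 0.05 by limma, 2 of the 10 were lower (Lyz2 and Hmox1), against 13.1% of all rows, and 0 were higher. In the authors' deposited table the same pair had a q under 0.05, where 6.14% of all rows were lower at that q. Both genes had the same Cuffdiff p of 5e-05 and q of 0.000995, so these values do not rank them. The groups did not overlap, with vcS5 lower, in Hmox1, Lyz2, Csf1r and Cd14, which is 4 of 10 against 27.5% of all rows.

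**Figure D1:**
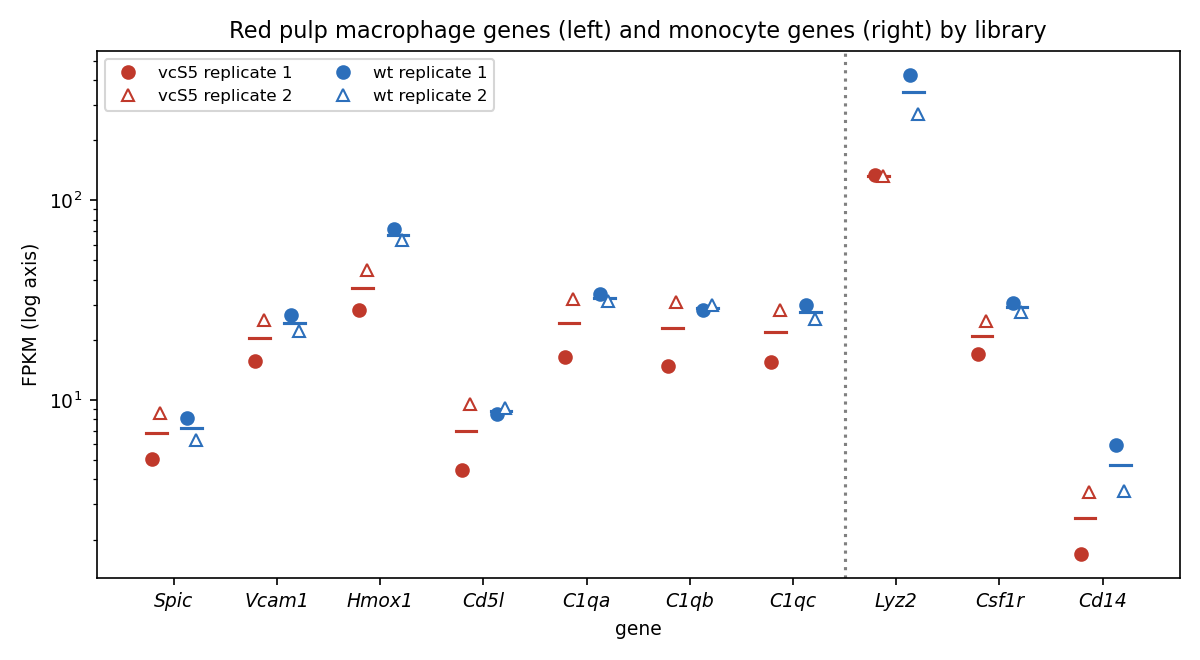
FPKM on a log axis for the 7 red pulp genes (left of the dotted line) and the 3 monocyte genes (right). Red marks vcS5 and blue wt, filled circles replicate 1 and open triangles replicate 2, with a bar at the mean of each group (n = 2). For 9 genes the filled red circle is the lowest point, while the 2 vcS5 values of Lyz2, 133 and 132 FPKM, nearly coincide.

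Spic (ENSMUSG00000004359, mm10 chr10:88674772-88685015, minus strand) encodes the transcription factor that specifies red pulp macrophages. It had 5.09 and 8.63 FPKM in vcS5, against 8.13 and 6.30 FPKM in wt. The vcS5 libraries held both the lowest and the highest value, so the groups overlapped. The mean was 6.86 ± 2.50 FPKM in vcS5 and 7.22 ± 1.29 FPKM in wt (SD, n = 2 each). The log2 change was -0.09 (95% interval -0.78 to 0.59, adjusted p = 0.878 by limma). It was 0.24 without vcS5 replicate 1 and 0.07 without wt replicate 1, so its sign rests on single libraries.

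Vcam1 (ENSMUSG00000027962, chr3:116110020-116129688, minus strand) encodes the adhesion molecule by which red pulp macrophages are often recognised and which endothelial and stromal cells also carry. It had 15.7 and 25.0 FPKM in vcS5, against 26.7 and 22.1 FPKM in wt. Only vcS5 replicate 1 lay outside the range of the wt libraries. Its log2 change was -0.28 (95% interval -0.91 to 0.36, adjusted p = 0.565 by limma), and 0.04 without vcS5 replicate 1. Of 15 stromal and endothelial markers looked for, 1 row was measured, Stab2 of sinusoidal endothelium, at 0.858 and 1.79 FPKM in vcS5 and 2.79 and 1.43 FPKM in wt.

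C1qa, C1qb and C1qc encode the chains of C1q, the recognition molecule of the classical complement pathway, which is assembled from equal numbers of the 3 chains and made mainly by macrophages. The genes lie side by side on mm10 chromosome 4, all on the minus strand, within 18675 bases (136880129 to 136898803). C1qa (ENSMUSG00000036887, chr4:136895917-136898803) had 16.5 and 31.9 FPKM in vcS5, against 33.8 and 31.1 FPKM in wt. C1qb (ENSMUSG00000036905, chr4:136880129-136886187) had 14.8 and 31.0 FPKM in vcS5, against 28.2 and 29.7 FPKM in wt. C1qc (ENSMUSG00000036896, chr4:136889804-136893065) had 15.6 and 28.3 FPKM in vcS5, against 30.0 and 25.5 FPKM in wt. In each of the 3 genes vcS5 replicate 1 was far below the other libraries, and vcS5 replicate 2 fell within or just above the wt values. The log2 changes were -0.48 for C1qa, -0.41 for C1qb and -0.38 for C1qc, and limma gave adjusted p-values of 0.416, 0.532 and 0.499. Their 95% intervals ran from -1.28 to 0.32, from -1.28 to 0.46 and from -1.13 to 0.37. Without vcS5 replicate 1 the changes were -0.02, 0.10 and 0.03, and without vcS5 replicate 2 they were -0.94, -0.92 and -0.79.

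The balance of the 3 chains varied less between libraries than their levels. On the FPKM scale, which is per transcript length, C1qa over C1qb was 1.109 and 1.03 in vcS5 and 1.197 and 1.05 in wt. C1qa over C1qc was 1.06 and 1.13 in vcS5 and 1.13 and 1.22 in wt. The mean of the 3 chains was 15.6 and 30.4 FPKM in vcS5 and 30.7 and 28.8 FPKM in wt.

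Cd5l (ENSMUSG00000015854, chr3:87357881-87371074, plus strand) encodes AIM, a scavenger receptor family protein that macrophages secrete and that promotes their survival. It had 4.45 and 9.50 FPKM in vcS5, against 8.55 and 9.10 FPKM in wt. The order of the libraries was that of C1qb, with vcS5 replicate 1 lowest and vcS5 replicate 2 highest. Its log2 change was -0.38 (95% interval -1.21 to 0.45, adjusted p = 0.550 by limma), and 0.10 without vcS5 replicate 1.

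Hmox1 (ENSMUSG00000005413, chr8:75093591-75100596, plus strand) encodes haem oxygenase 1, the inducible enzyme that opens the haem ring and frees its iron. It was the most abundant of the red pulp genes in every library and the only one whose groups did not overlap. It had 28.2 and 44.7 FPKM in vcS5, against 71.6 and 62.9 FPKM in wt. The mean was 36.5 ± 11.7 FPKM in vcS5 and 67.3 ± 6.13 FPKM in wt (SD, n = 2 each), a ratio of 0.542. The log2 change was -0.90 (SE 0.245, 95% interval -1.52 to -0.28, unadjusted p = 0.0135). The adjusted p was 0.0938 by limma and from 0.0788 to 0.304 over 12 alternatives. The authors' deposited table gave a q of 0.000995, the same value as for Lyz2. Without vcS5 replicate 1 the log2 change was -0.57, and without vcS5 replicate 2 it was -1.22.

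Lyz2 (ENSMUSG00000069516, chr10:117277334-117282274, minus strand) encodes the lysozyme of the myeloid lineage, an enzyme that cuts bacterial cell walls. It had 133 and 132 FPKM in vcS5, against 425 and 269 FPKM in wt. The vcS5 libraries were alike and the wt libraries differed, the reverse of the C1q genes. The mean was 133 ± 1.21 FPKM in vcS5 and 347 ± 110 FPKM in wt (SD, n = 2 each), 2.62-fold lower in vcS5. The log2 change was -1.34 (SE 0.249, 95% interval -1.98 to -0.71, adjusted p = 0.0376 by limma). The adjusted p ran from 0.0373 to 0.193 over 12 alternatives, and the call was lost with the replicate block (0.0509) and without any 1 of the 4 libraries. The change was -1.01 without wt replicate 1 and -1.67 without wt replicate 2.

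Taken as a list, neutrophil markers stood apart in the same wt library as Lyz2. Their summed level over 15 measured of 15 was 1038 and 1006 FPKM in vcS5 and 6311 and 1915 FPKM in wt, and none was at 0. S100a8 and S100a9, which encode the calcium-binding proteins that fill the neutrophil cytoplasm, were the most abundant. S100a8 had 489 and 389 FPKM in vcS5 and 2932 and 714 FPKM in wt. Csf3r, the receptor for the neutrophil growth factor G-CSF, was the 1 marker of 15 that passed, with a log2 change of -1.04 (adjusted p = 0.0339 by limma). It had 16.7 and 21.0 FPKM in vcS5 and 35.8 and 44.0 FPKM in wt. Its highest value was thus in wt replicate 2, unlike that of S100a8. Over the 15 the median was -1.47. At an unadjusted p under 0.05 by limma, 10 were lower, against 13.1% of all rows, and 0 were higher. In 13 the groups did not overlap, with vcS5 lower, against 27.5% of all rows. Without wt replicate 2, 9 of the 15 were called lower, and without any other library 0 were. The part of neutrophils in the Lyz2 value was not tested. Of the 50-base windows of Lyz2 transcripts, 15.4% also occur in its neighbour Lyz1 (not analysed here), so reads from the 2 genes may be mixed.

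Csf1r (ENSMUSG00000024621) encodes the receptor for the growth factors CSF1 and IL-34, on which monocytes and macrophages depend. It had 16.9 and 24.9 FPKM in vcS5, against 30.8 and 27.7 FPKM in wt. The groups did not overlap, with vcS5 replicate 1 the farther from wt. The log2 change was -0.49 (95% interval -1.03 to 0.05, adjusted p = 0.238 by limma), and -0.22 without vcS5 replicate 1. The file places it in a locus (chr18:61105572-61177050) shared with Hmgxb3 on the other strand. Of its 50-base transcript windows, 14.3% also occur in Hmgxb3, and reads were not marked by strand, so those of the 2 genes cannot be told apart there. In the authors' deposited table Hmgxb3 had a group FPKM of 10.9 in vcS5 and 11.1 in wt, and another row of the locus, which has no symbol, 11.2 in vcS5 and 1.76 in wt.

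Cd14 (ENSMUSG00000051439, chr18:36725074-36726736, minus strand) was the lowest of the 10 genes. It had 1.70 and 3.45 FPKM in vcS5, against 5.99 and 3.50 FPKM in wt. The groups were separated by only the small gap between replicate 2 of vcS5 and replicate 2 of wt. Its log2 change was -0.69 (95% interval -1.56 to 0.17, adjusted p = 0.284 by limma), and -0.89 with a pseudocount of 0.1. It was -0.33 without vcS5 replicate 1 and -0.38 without wt replicate 1.

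**Figure D2:**
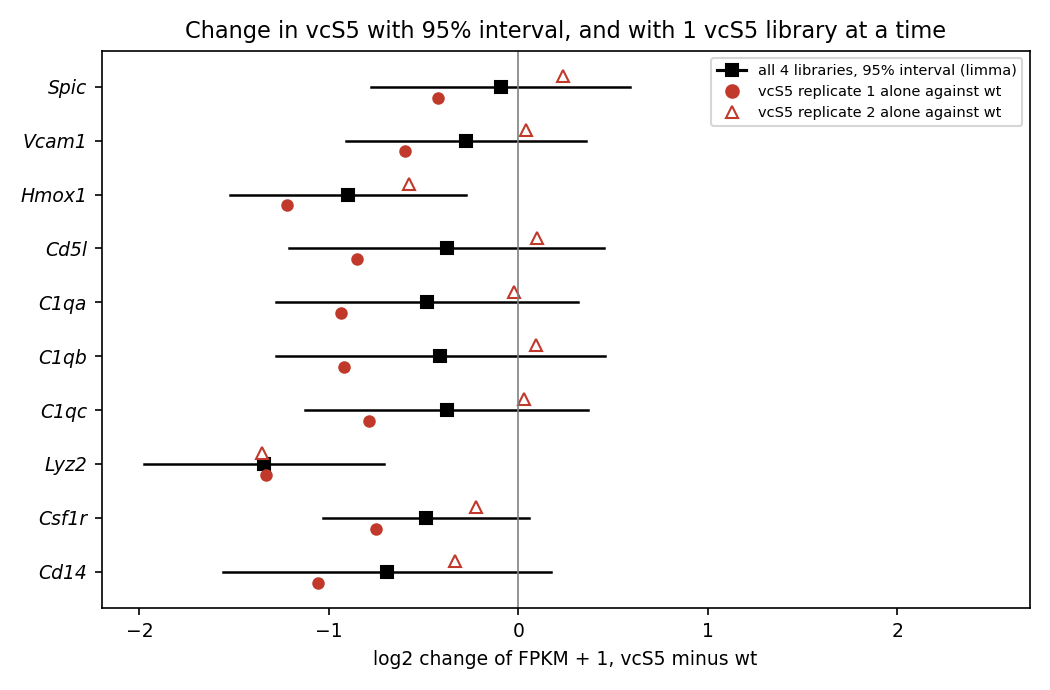
Log2 change of FPKM + 1, vcS5 minus wt, for each gene. Black squares and lines are the fit to all 4 libraries with its 95% interval, and red symbols set 1 vcS5 library alone against both wt libraries (filled circle replicate 1, open triangle replicate 2). The triangles of the 6 red pulp genes other than Hmox1 lie between -0.02 and 0.24, and only the intervals of Hmox1 and Lyz2 leave out 0.

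In the 6 red pulp genes other than Hmox1 the 2 vcS5 libraries differed more from each other than their mean differed from wt. The FPKM ratio of vcS5 replicate 2 over replicate 1 ran from 1.59 to 2.14 over the 7 red pulp genes, with a median of 1.82. It was 0.987 for Lyz2, 1.47 for Csf1r and 2.03 for Cd14. Over all rows without a 0 in vcS5 the median ratio was 1.03, and 9.2% of rows reached 1.5, against 8 of the 10 genes. Of all rows, 25% had their lowest value in vcS5 replicate 1. Between the wt libraries, replicate 2 over replicate 1 ran from 0.775 to 1.06 in the red pulp genes, and was 0.633 for Lyz2 and 0.585 for Cd14.

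**Figure D3:**
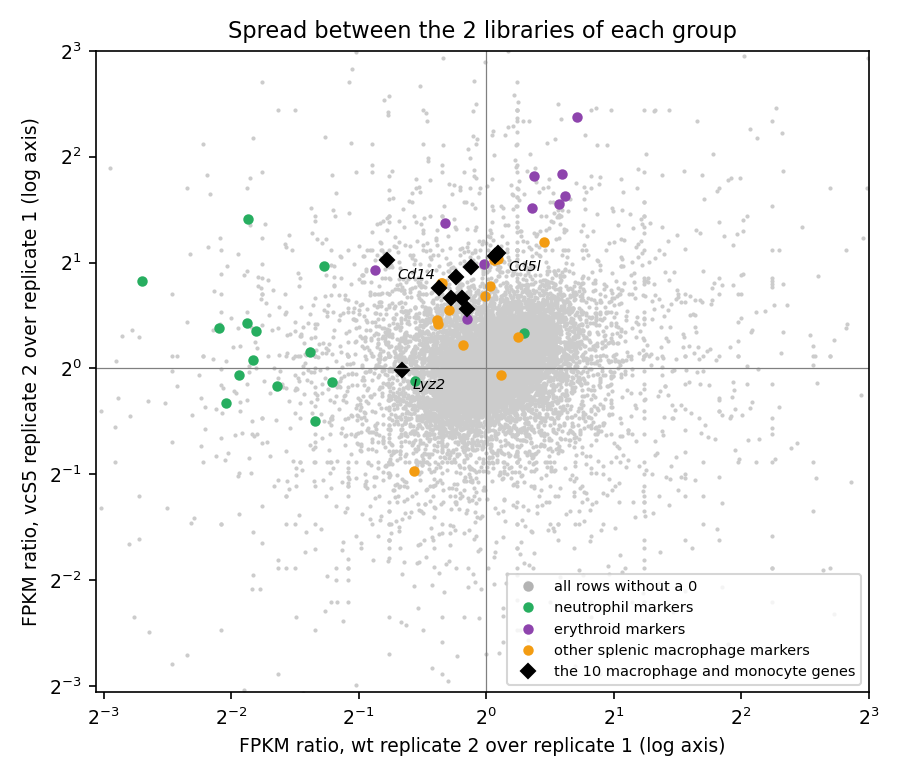
FPKM ratio of replicate 2 over replicate 1 in vcS5 (vertical) against the same ratio in wt (horizontal), on log axes, for the 10 genes (black diamonds), 3 marker lists and all rows without a 0 (grey; rows beyond the axes are not drawn). All 10 genes but Lyz2 lie at 1.47 or more on the vertical axis, where most erythroid markers lie higher still, and Lyz2 lies at 0.987, with most neutrophil markers to its left.

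Erythroid markers moved with the red pulp genes between the vcS5 libraries. Of 10 measured rows, 9 were lowest in vcS5 replicate 1, against 25% of all rows. The ratio of vcS5 replicate 2 over replicate 1 was at least 1.5 in 9, against 9.2% of all rows, with a median of 2.90. Between the wt libraries they did not move together. There the median ratio of replicate 2 over replicate 1 was 1.29 for erythroid markers and 0.879 for the red pulp genes. Their summed level was 679 and 2079 FPKM in vcS5 and 1348 and 1907 FPKM in wt. Hba-a1, an alpha globin gene, had 142 and 406 FPKM in vcS5 and 296 and 382 FPKM in wt, and Hbb-b1, a beta globin gene, 323 and 947 FPKM in vcS5 and 594 and 883 FPKM in wt. No erythroid marker passed the test by limma, 0 had an unadjusted p under 0.05, and none was at 0. The part of red cells and their precursors in the red pulp values was not tested. B cell markers did not share this pattern, since their median ratio of vcS5 replicate 2 over replicate 1 was 0.982, and that of T cell markers was 1.16.

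**Figure D4:**
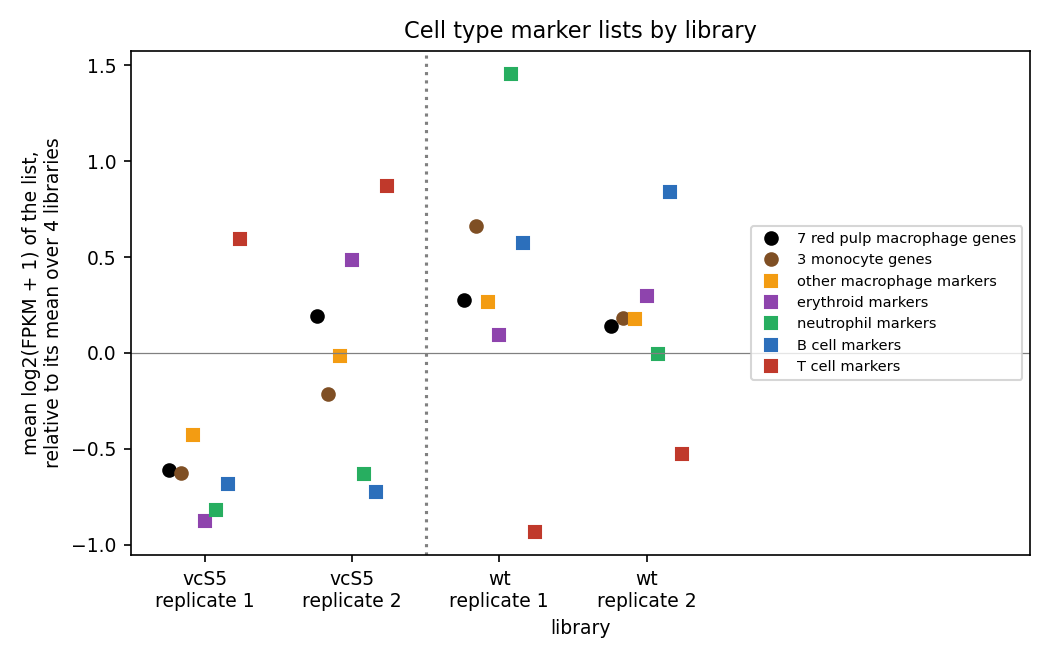
Mean log2(FPKM + 1) of each list in each library, relative to the mean of that list over the 4 libraries. Circles are the red pulp and monocyte genes and squares are marker lists. The red pulp genes and the erythroid markers are low in vcS5 replicate 1 only, neutrophil markers are highest in wt replicate 1, and B and T cell markers separate vcS5 from wt.

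The other members were also set against the mean of the C1q genes in the same library, which was lowest in vcS5 replicate 1 (15.6 FPKM). Cd5l kept a ratio of 0.285 and 0.312 in vcS5 and 0.279 and 0.316 in wt. Spic stood at 0.326 and 0.284 in vcS5 and 0.265 and 0.219 in wt, so its ratio was higher in both vcS5 libraries. Vcam1 had 1.01 and 0.823 in vcS5 and 0.870 and 0.768 in wt, and Csf1r 1.08 and 0.819 in vcS5 and 1.00 and 0.964 in wt, with overlapping groups. Hmox1 had 1.80 and 1.47 in vcS5 and 2.33 and 2.19 in wt, lower in both vcS5 libraries. Lyz2 had 8.54 and 4.33 in vcS5 and 13.8 and 9.35 in wt, also lower in both. Cd14 had 0.109 and 0.113 in vcS5 and 0.195 and 0.122 in wt, lower in both by a small margin. With 2 libraries a group, an exact permutation test of such a ratio cannot give a two-sided p below 0.333, so none was run. The share of all rows whose ratio to the C1q mean separates the groups was not computed, so these separations are a description.

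Among other markers of splenic macrophages, Sirpa and Apoe fell in vcS5. Of 21 listed, 14 were measured. Of these, 2 fell and 0 rose, and 12 were lowest in vcS5 replicate 1, with a median log2 change of -0.50, and of -0.24 without vcS5 replicate 1. The groups did not overlap, with vcS5 lower, in 9 of the 14, against 1 of the 7 red pulp genes and 27.5% of all rows. At an unadjusted p under 0.05, 4 were lower, against 13.1% of all rows, and 1 was higher. Sirpa, which encodes an inhibitory receptor that reads CD47 on red blood cells, had 14.8 and 20.3 FPKM in vcS5 and 43.2 and 33.1 FPKM in wt (log2 change -1.08, adjusted p = 0.0470 by limma). Apoe, a lipid carrier made by macrophages, had 106 and 130 FPKM in vcS5 and 204 and 243 FPKM in wt (-0.91, adjusted p = 0.0456 by limma). The call of Sirpa was lost with quantile normalization (adjusted p = 0.0532), without the variance trend (0.0578), with the replicate block (0.0886) and without any 1 library (up to 0.188). That of Apoe was lost without the variance trend (0.0526) and without any 1 library (up to 0.194), so without the trend limma called 0 of the 14. The row of Nr1h3, a sterol-sensing receptor of splenic macrophages, merges another gene and had 81.5 and 78.1 FPKM in vcS5 and 57.9 and 62.7 FPKM in wt (adjusted p = 0.147 by limma).

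Among genes of haem and iron handling, Slc11a2 rose in vcS5. Of 20 measured of 23, 1 rose and 0 fell, and their median change was -0.15. At an unadjusted p under 0.05 by limma, 5 were lower, against 13.1% of all rows, and 1 was higher. In 13 of the 20 the log2 change was below 0, against 49.9% of all rows. In 8 the groups did not overlap, with vcS5 lower, against 27.5% of all rows. Slc11a2, the importer of ferrous iron DMT1, had 40.4 and 48.1 FPKM in vcS5 and 19.3 and 20.1 FPKM in wt (log2 change 1.12, adjusted p = 0.0174 by limma). Ftl1 and Fth1 encode the chains of ferritin, which stores iron. Ftl1 had 1743 and 2868 FPKM in vcS5 and 2403 and 3895 FPKM in wt (adjusted p = 0.547 by limma). Fth1 had 490 and 488 FPKM in vcS5 and 729 and 781 FPKM in wt (-0.62, adjusted p = 0.0941 by limma).

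The partners of C1q in the complement system were measured for 13 of 23 entries, of which Lair1 rose and Cd55 fell, with a median of -0.54. At an unadjusted p under 0.05, 6 were lower, against 13.1% of all rows, and 1 was higher. Cd55 encodes decay accelerating factor, which protects cells from complement. It had 123 and 114 FPKM in vcS5 and 215 and 229 FPKM in wt (log2 change -0.90, adjusted p = 0.0274 by limma). Lair1, an inhibitory receptor for collagen domains that also binds C1q, had 17.1 and 19.6 FPKM in vcS5 and 11.1 and 9.37 FPKM in wt (0.79, adjusted p = 0.0472 by limma). The call of Lair1 was lost without the variance trend (0.0584), with the replicate block (0.0740) and without any 1 library (up to 0.220). Calr, the chaperone calreticulin that also binds C1q, had 256 and 339 FPKM in vcS5 and 324 and 381 FPKM in wt (adjusted p = 0.527 by limma). Of 6 measured VCAM1 ligands and related adhesion genes, none passed by limma. At an unadjusted p under 0.05, 1 was lower, against 13.1% of all rows, and 2 were higher. Itgb1, the beta 1 chain of the VCAM1 receptor, had 101 and 102 FPKM in vcS5 and 65.4 and 50.0 FPKM in wt (0.82, adjusted p = 0.0536 by limma).

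Around the CSF1 receptor, 10 of 12 genes were measured, with a median of -0.37. Of these, 2 fell, against 4.13% of all rows, and 1 rose, against 4.59%. At an unadjusted p under 0.05 by limma, 3 were lower, against 13.1% of all rows, and 2 were higher. In 6 the groups did not overlap, with vcS5 lower, against 27.5% of all rows. Spi1 encodes PU.1, the ETS factor that drives Csf1r and the myeloid and B cell programmes, and its row is named Sfpi1 in the file. It had 44.3 and 48.3 FPKM in vcS5 and 122 and 114 FPKM in wt (log2 change -1.33, adjusted p = 0.0108 by limma). Tyrobp, the adaptor DAP12 of myeloid and natural killer cell receptors, had 73.1 and 76.2 FPKM in vcS5 and 198 and 141 FPKM in wt (-1.16, adjusted p = 0.0333 by limma). Pik3cd, the leukocyte phosphoinositide kinase subunit, had 174 and 215 FPKM in vcS5 and 87.0 and 108 FPKM in wt (0.99, adjusted p = 0.0412 by limma). In Spi1 and Tyrobp the vcS5 libraries were close to each other, unlike in Csf1r. B cell markers, whose cells also use Spi1, were lower in both vcS5 libraries, and their part in this value was not tested.

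Of 14 measured genes in the CD14 and TLR4 pathway, 4 fell and 0 rose, and the median change was -0.37. Tlr4, the lipopolysaccharide receptor, had 2.93 and 4.01 FPKM in vcS5 and 8.33 and 10.01 FPKM in wt (log2 change -1.19, adjusted p = 0.0292 by limma). Ly96 encodes its partner MD-2 and had 3.36 and 3.26 FPKM in vcS5 and 7.06 and 8.21 FPKM in wt (-0.999, adjusted p = 0.0277 by limma). Cd180 and Ly86 encode a related receptor pair of B cells and myeloid cells, which changed by -1.37 (adjusted p = 0.0137 by limma) and by -1.36 (adjusted p = 0.0105). At an unadjusted p under 0.05, 7 of the 14 were lower, against 13.1% of all rows, and 0 were higher. The part of B cells, whose 10 markers all fell, was not tested.

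The other monocyte markers were called in both directions, while most had a log2 change below 0. Of 17 measured of 18, 3 rose, against 4.59% of all rows, and 4 fell, against 4.13%, with a median of -0.83. In 12 the log2 change was below 0, against 49.9% of all rows. At an unadjusted p under 0.05 by limma, 10 were lower, against 13.1% of all rows, and 4 were higher. In 11 the groups did not overlap, with vcS5 lower, against 27.5% of all rows. Ly6c2 rose, with 483 and 525 FPKM in vcS5 and 127 and 78.8 FPKM in wt (log2 change 2.32, adjusted p = 0.0124 by limma), in a row that merges it with a related gene. Ccr2, the receptor for the chemokine that draws monocytes from bone marrow, had 57.7 and 49.7 FPKM in vcS5 and 21.4 and 10.1 FPKM in wt (1.79, adjusted p = 0.0418 by limma). Cx3cr1, the fractalkine receptor, had 14.1 and 10.2 FPKM in vcS5 and 4.76 and 3.13 FPKM in wt (1.42, adjusted p = 0.0332 by limma). These 3 genes are also expressed by some T cells. The summed level of 10 general T cell markers was higher in both vcS5 libraries, although Cd4 among them fell, and their part was not tested. Klf4, a transcription factor of monocyte differentiation, had 8.55 and 7.07 FPKM in vcS5 and 22.3 and 22.2 FPKM in wt (-1.41, adjusted p = 0.0113 by limma). Nr4a1, on which patrolling monocytes depend in mice, Fn1 and Ear2 were named after their values were seen and fell by 1.26, 1.19 and 0.97 on the log2 scale (adjusted p = 0.0107, 0.0243 and 0.0445 by limma). The call of Ear2 was lost under 7 of 12 alternatives. The abundant Ms4a4c did not pass, with 219 and 293 FPKM in vcS5 and 167 and 184 FPKM in wt. Its log2 change was 0.53 (adjusted p = 0.180 by limma). B cell markers were lower in both vcS5 libraries, with a median of -1.41, and their part in the Klf4 and Nr4a1 values was not tested. Of 10 measured dendritic cell markers, 1 fell, Siglech of plasmacytoid dendritic cells (-1.03, adjusted p = 0.0433 by limma), and none rose. Of all rows, 4.13% fell. At an unadjusted p under 0.05 by limma, 4 were lower, against 13.1% of all rows, and 0 were higher. In 6 the groups did not overlap, with vcS5 lower, against 27.5% of all rows. Bst2 and Ccr7, the most abundant of them, changed by 0.35 and 0.23 (adjusted p = 0.363 and 0.435 by limma).

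The rows most like the red pulp genes were those at the smallest Euclidean distance from their mean profile of row-centred log2 values over the 4 libraries, among 8460 rows with a symbol and a mean of at least 5 FPKM, antigen receptor segments and unnamed loci left out. They were a merged row named Srprb (distance 0.121), Ctse (0.133), Tnk2 (0.139), Cdca2 (0.155) and Alas1 (0.164). Ctse, the aspartic protease cathepsin E, had 13.7 and 27.01 FPKM in vcS5 and 29.6 and 26.4 FPKM in wt. Alas1, the first enzyme of haem synthesis outside the erythroid lineage, had 10.3 and 19.2 FPKM in vcS5 and 20.03 and 15.8 FPKM in wt. The rows most like the monocyte genes were Clec12a (0.0723), Igsf6 (0.0747), Clec4a2 (0.113), Pla2g7 (0.130) and Eps8l1 (0.140). Clec12a, an inhibitory lectin receptor of myeloid cells, had 7.06 and 9.27 FPKM in vcS5 and 17.4 and 12.9 FPKM in wt. With only 4 libraries these distances are a description.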

How the data were processed

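RNA was extracted with Trizol from frozen spleen cell suspensions and sequenced from TruSeq RNA v2 libraries as 50 bp single-end reads, following the labels' protocols, with a kit that keeps no strand information. The authors deposited FPKM per library and per group, with a log2 fold change (vcS5 over wt), a p-value and a q-value for each row, per the file headers. The submitters' processing notes name the mm10 build and, without settings, Cuffdiff 2.1.1, TopHat2 2.0.9, Bowtie2 2.1.0 and Cufflinks.

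FPKM loses read numbers. Low values fell on steps, and 1 read in wt replicate 1 was worth 0.901 of 1 read in vcS5 replicate 1, 0.831 in vcS5 replicate 2 and 0.847 in wt replicate 2, so relative depth differed little. Absolute depth is unknown and no counting interval is given.

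Values were tested as log2(FPKM + 1), which understates changes of low rows, with limma 3.58.1 in R 4.3.3, the variance trend, no covariates, 4 libraries and 14226 rows, two-sided, with Benjamini-Hochberg adjustment over all rows. A minimum mean FPKM of 1 removed 0 rows. Intervals are 95% intervals of the moderated fit. If the 2 libraries of a group did not come from separate mice, p-values would measure technical spread. Genes were picked for naming by rule, and not all of those picked are described above. Picked were the 10 members and the 5 rows nearest each member profile. From each of 13 other lists, up to 4 called rows with the largest change were picked. These had a mean of at least 5 FPKM in the group where they were higher. The 2 most abundant rows of each of those lists were also picked. Lists are described by counts and medians, with no list test. The members and lists were chosen with earlier results of these data known. Rows were matched by symbol, and 3 through Ensembl identifiers. Listed genes without a row are not analysed here. Positions are 1-based. Promoters are from RefSeq (GRCm38.p6), and shared 50-base windows were counted in GENCODE vM21 transcripts on both strands. The scripts were tested on simulated data. Alternatives were other pseudocounts, filters, scalings, no variance trend, a replicate block and leaving out each library.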

Additional observations from a re-analysis of the deposited data

How the results depend on the processing

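Absolute depth is unknown and each group has 2 libraries, so a difference that misses the threshold may still exist. The count of members called lower was 1 in the fit as reported and under 7 of 12 alternatives, and 0 with the replicate block and without any 1 of the 4 libraries, each of which also leaves fewer residual degrees of freedom. The count called higher was 0 under all 12. The median log2 change of the 10 genes ran from -0.88 without vcS5 replicate 2 to 0.0045 without vcS5 replicate 1. Over all rows, leaving out 1 library gave from 71 to 245 calls, from 52 to 164 higher and from 19 to 81 lower.

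Log2 changes that turned their sign did so mostly without vcS5 replicate 1, and were lowest without vcS5 replicate 2. Given as without replicate 2 and without replicate 1 of vcS5, they were -0.423 and 0.238 for Spic, -0.597 and 0.0409 for Vcam1, -0.851 and 0.10 for Cd5l, -0.919 and 0.10 for C1qb, and -0.789 and 0.0315 for C1qc. They were -1.16 and 0.39 for Hbb-b1, -1.24 and 0.27 for Hba-a1, -0.943 and 0.0434 for Cdca2, and -0.739 and 0.10 for Alas1. Spic was at 0.07 without wt replicate 1. Irak1, the kinase below TLR4, stood at -0.0948 and 0.318 in the same order, and at -0.0056 without wt replicate 1. The causes of these turns were not tested. The groups share replicate numbers in their titles, and deviations of same-numbered libraries correlated at 0.176 across rows. With 2 pairs this does not settle whether the numbers mark anything shared, and no label says so. With the replicate block 1028 rows were called, and Lyz2 had an adjusted p of 0.0509 by limma, against 0.0376 as reported. Among other calls, those of Tyrobp, Pik3cd, Ccr2 and Ly96 were lost under 5 of 12 alternatives, and that of Siglech under 5 of 11. Of 681 values of the other named genes under alternatives, 545 kept direction and side of the threshold, and 109 of the 124 that lost a call did so with a library left out.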
